A study of Mus musculus with 20 samples.

Results

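The 9 genes described here, Slc22a2, Slc22a4, Slc22a5, Slc22a6, Slc22a7, Slc22a8, Slc22a12, Slc22a13 and Slc22a19, encode organic anion and cation transporters of the Slc22a family. They were taken by gene name from a table of raw gene counts that lists 54532 genes, among them 17 other Slc22a genes, and were followed in all 20 libraries. The libraries were made from bulk RNA of 10 kidney tumors and 10 normal kidneys of mice. By the study's methods all came from 1 cohort of 10 animals of the Cre-less AAV model, on a C57BL/6 background. They carried LSL-Cas9/+, a Cas9 and GFP cassette that is silent until Cre removes a stop signal, together with Pax8 Cre/+, so that Cas9 was made in Pax8-expressing cells, which include most cells of the renal tubule. An adeno-associated virus (AAV) with sgRNAs against Vhl, Pbrm1, Keap1 and Tsc1 was injected directly into a kidney of young adult animals of either sex. The normal kidneys therefore carried the same alleles as the tumors and came from injected animals, and kidneys of uninjected animals were not analysed here. The sources used here do not state whether a normal kidney sample was taken from the injected organ. The labels give neither the sex nor the age at collection of the animal behind a library.

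Slc22a proteins carry small charged molecules across cell membranes without using ATP directly, and in the kidney most of them sit in the proximal tubule. Those on the blood side (Slc22a6 and Slc22a8 for organic anions, Slc22a2 for organic cations) take up drugs, toxins and metabolites for secretion, while Slc22a12, Slc22a13, Slc22a19 and, in rodents, Slc22a7 sit on the urine side, where Slc22a12 recovers urate. Slc22a5 recovers carnitine from the urine, and Slc22a4 carries the antioxidant ergothioneine.

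Tumor libraries held 18447394 to 24902973 counts each, and those of normal kidneys 14737516 to 26679704. Expression is given as CPM, the counts of a gene divided by library size in units of 1e+06 counts, with the size scaled by edgeR's TMM factors, and differences as log2 fold changes of tumors over normal kidneys from edgeR's quasi-likelihood test, with p-values adjusted by the Benjamini-Hochberg method over the 15354 genes that passed a filter for low counts. Of the targeted genes, Vhl (log2 fold change -0.49, adjusted p = 0.00179) and Tsc1 (-0.61, adjusted p = 0.00871) were lower in tumors, Keap1 was higher (0.83) and Pbrm1 was not called (-0.28, adjusted p = 0.230). Normal kidney 9 had a TMM factor of 0.749 and 19996 genes with a count, both the lowest of the 20. Among normal kidneys it had the lowest summed podocyte markers (80.9 CPM, with kidney 5 next at 483 CPM). Its hepatocyte markers were the highest (1209 CPM, with kidney 6 next at 271 CPM). Normal kidneys 5, 7 and 8 stood apart by a summed level of 8 markers of injured tubules, among them Spp1, Lcn2 and Havcr1, of 28370 to 49825 CPM, against 2125 to 4245 CPM in the other 7 normal kidneys. Tumor 7 had the lowest summed level of proximal tubule markers (2421 CPM) and the highest of fibroblast markers (6386 CPM). In bulk RNA, fewer cells of a type and less RNA per cell cannot be told apart.

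All 9 genes passed the filter. Expression of 7 was lower in tumors, that of Slc22a2 was higher, and that of Slc22a6 was not called. Among all tested genes 23.8% were called lower and 23.6% higher. Slc22a7, Slc22a13 and Slc22a19 passed the filter through the normal kidneys alone, so their direction was bound to be down and their share in these counts is no evidence about the family. For Slc22a4, Slc22a7, Slc22a13 and Slc22a19 every tumor was below every normal kidney, as it was for 4.74% of all tested genes. At a log2 fold change under -1 and an unadjusted p under 0.001, 4 of the 9 were lower (10.2% of tested genes), and at the corresponding upper limits 0 were higher (8.85% of tested genes). The median log2 fold change over all tested genes was -0.021.

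**Figure D1:**
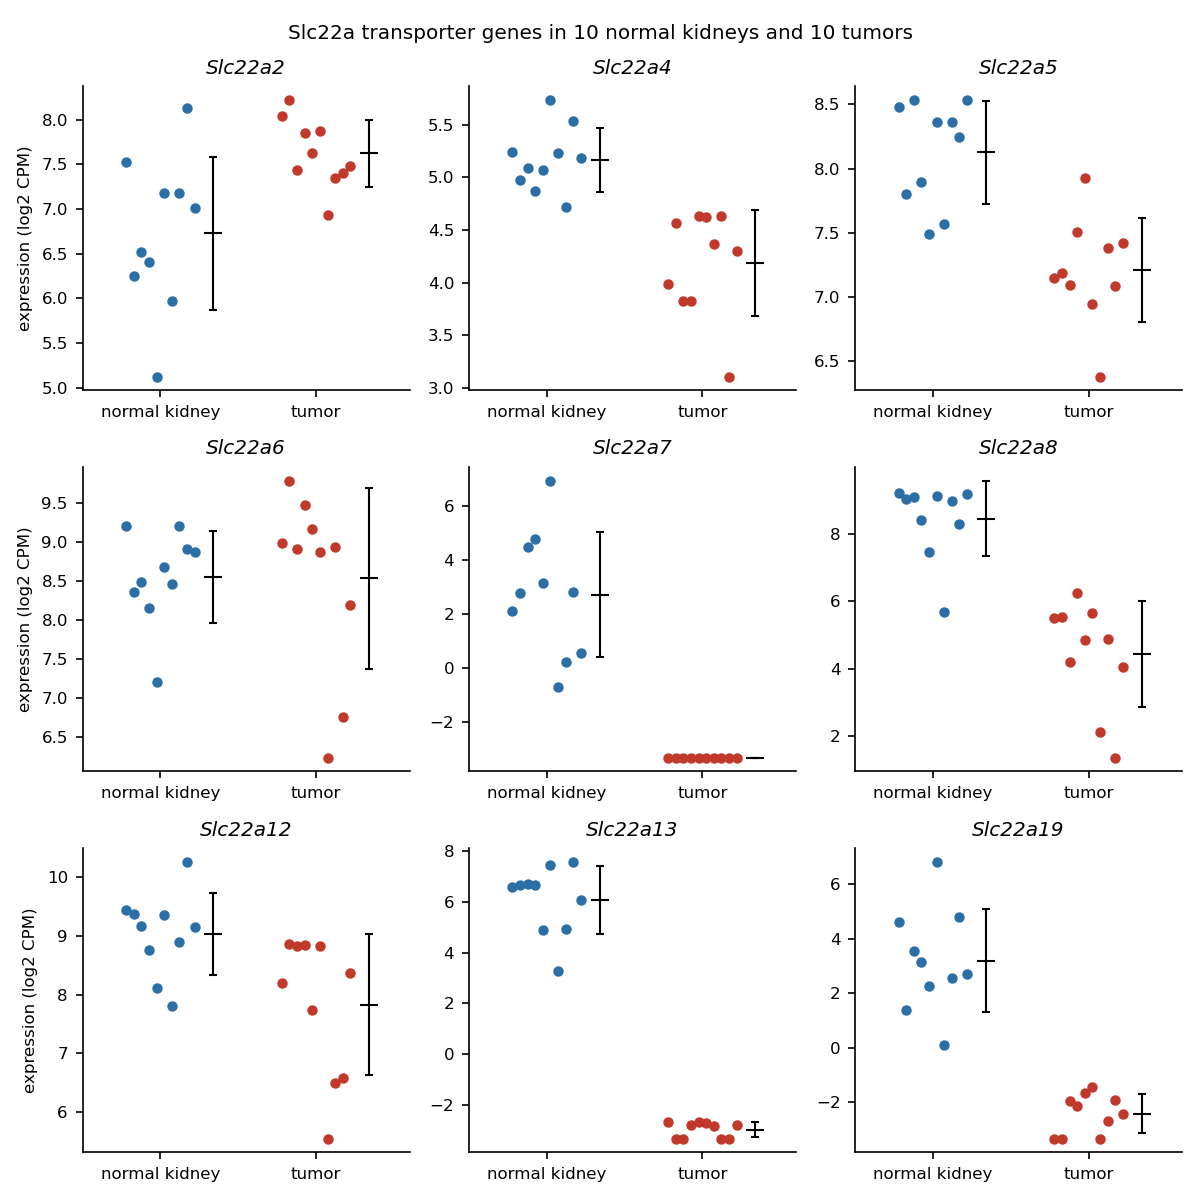
Expression of the 9 genes in log2 CPM (prior count of 2), with 1 point per library (blue, 10 normal kidneys; red, 10 tumors) and the mean and SD in black beside the points. Each panel has its own vertical axis. The tumors lie below all normal kidneys for Slc22a4, Slc22a7, Slc22a13 and Slc22a19, and the 10 tumors at the bottom of the Slc22a7 panel have 0 counts.

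Slc22a6 (OAT1) and Slc22a8 (OAT3), the main entry routes for organic anions from blood into the proximal tubule, lie side by side on chromosome 19 of GRCm38, on the plus strand. Slc22a8 (ENSMUSG00000063796) spans 8591254 to 8611834 and Slc22a6 (ENSMUSG00000024650) 8617996 to 8628299, with 6161 bases between them. In normal kidneys Slc22a8 was expressed at 51.6 CPM in the lowest library, 518 CPM at the median and 601 CPM in the highest. In tumors the corresponding values were 2.45, 28.9 and 75.7 CPM. Of the tumors 9 were below every normal kidney, and tumor 4, the highest, overlapped only normal kidney 7, the lowest. The log2 fold change of Slc22a8 was -3.74 (SE 0.531, adjusted p = 6.24e-06), or 13.4-fold lower. Slc22a6 ranged from 148 CPM through a median of 385 CPM to 593 CPM in normal kidneys and from 75.6 CPM through a median of 486 CPM to 882 CPM in tumors. Its groups overlapped widely, with 2 tumors (2 and 4) above and 2 tumors (7 and 9) below every normal kidney. The fitted log2 fold change of Slc22a6 was 0.19 (SE 0.339, adjusted p = 0.664), while the mean of log2 CPM was 8.53 ± 1.16 for tumors, against 8.56 ± 0.59 for normal kidneys (SD, n = 10 each), a difference of the opposite sign and within the spread between libraries.

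The neighbours were also compared within each library, where scaling between libraries has no part. The log2 ratio of Slc22a8 to Slc22a6 was -0.09 ± 1.02 for normal kidneys, against -4.10 ± 0.67 for tumors (SD, n = 10 each). Tumors spanned -5.41 to -3.21 and normal kidneys -2.77 to 0.70, so that all 10 tumors were below all normal kidneys. The difference of -4.01 had p = 1e-05 in a two-sided permutation test, the smallest p these permutations can give, and an adjusted p of 3e-05 over the 3 ratios tested. Normal kidney 7 was alone at the low end, since the next lowest normal kidney (9) was at -0.61. Without normal kidneys 5, 7 and 8 the difference was -4.36. Within tumors both genes were lowest in the same libraries, tumor 7 (Slc22a6 at 75.6 CPM, Slc22a8 at 4.18 CPM) and tumor 9 (108 and 2.45 CPM), and the log2 CPM of the pair had a Pearson's r of 0.93 over the 10 tumors and of 0.43 over the 10 normal kidneys, given as a description.

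**Figure D2:**
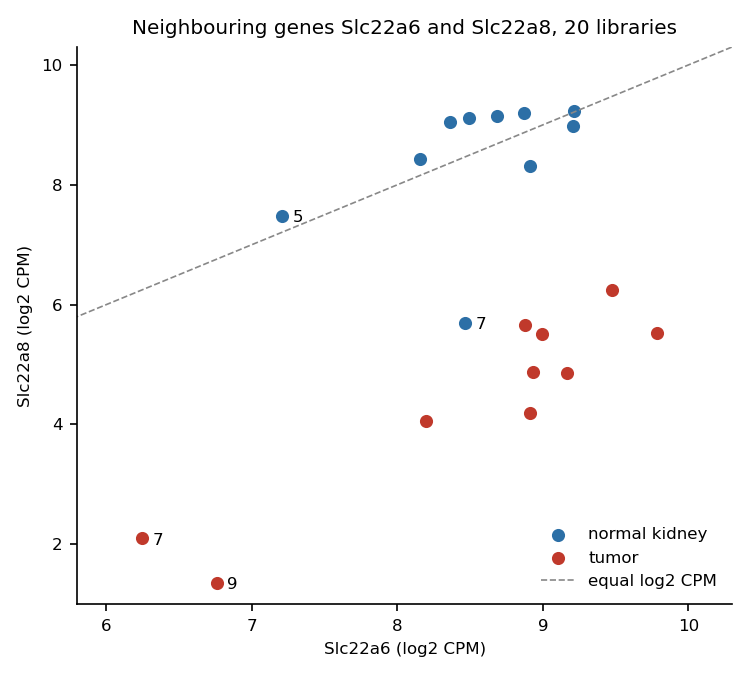
Expression of Slc22a8 against its neighbour Slc22a6 in each of 20 libraries, both in log2 CPM. Blue points are normal kidneys, red points are tumors, numbers mark the libraries furthest from their group and the dashed line marks equal values. The tumors cover the range of Slc22a6 in normal kidneys, and each lies below the line, at a log2 ratio of -3.21 or lower.

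The promoters of this pair are shown because the neighbours differed in the comparison. The 250 bases upstream of each transcription start are from RefSeq on GRCm38.p6, plus strand, 5′ to 3′, at chr19:8592932-8593181 and chr19:8617746-8617995.
Slc22a8: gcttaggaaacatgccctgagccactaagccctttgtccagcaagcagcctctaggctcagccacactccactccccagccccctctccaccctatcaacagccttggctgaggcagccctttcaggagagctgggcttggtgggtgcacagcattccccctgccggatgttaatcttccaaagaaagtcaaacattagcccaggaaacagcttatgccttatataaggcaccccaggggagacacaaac
Slc22a6: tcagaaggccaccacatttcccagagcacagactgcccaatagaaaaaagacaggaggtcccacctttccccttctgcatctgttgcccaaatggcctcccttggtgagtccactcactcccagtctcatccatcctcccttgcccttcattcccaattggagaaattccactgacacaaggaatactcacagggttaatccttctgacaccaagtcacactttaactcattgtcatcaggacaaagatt
The RefSeq start used for Slc22a8 lies inside the gene span listed with the counts. Short motifs were searched on both strands of the 250 bases for the 8 genes that had a promoter in the table (Slc22a7 was not among them) and in 27025 mouse promoters of the same length. Neither sequence shown holds any of the motifs named next. The HNF4 motif CAAAGTCCA with up to 1 mismatch was in 1 of the 8, Slc22a19 (7.09% of all), and the hypoxia core ACGTG was in Slc22a4 (16.6% of all). TATAAA (13.0% of all) and the antioxidant core TGACNNNGC (10.1% of all) were in 0 of the 8. A match of letters is a description and not a binding site.

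Slc22a7 (OAT2, ENSMUSG00000067144, chromosome 17, 46432183 to 46438457), another organic anion carrier, had 0 counts in all 10 tumors. In normal kidneys it ranged from 0.511 CPM in kidney 7 through a median of 6.81 CPM to 122 CPM in kidney 6, or 14 to 2117 counts. Against a floor of 3 counts per library, which allows up to 0.150 CPM in the tumors on average, Slc22a7 was at least 134-fold lower in tumors (adjusted p = 0.000150). Normal kidney 6 carried much of that mean, and without it, a choice made after seeing the data, the gene was at least 58.3-fold lower. This bound and the intervals below cover counting error only.

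Slc22a13 (OAT10, ENSMUSG00000074028, chromosome 9, 119192974 to 119209098), which carries nicotinate and urate, was expressed at 9.50 CPM in the lowest normal kidney (7), 98.3 CPM at the median and 190 CPM in the highest (9). The 10 tumors held 6 counts of it in all, with at most 1 count per tumor, against 16507 counts in the normal kidneys. The summed level was 2843-fold lower in tumors, with a 95% exact counting interval of 1306 to 7748. The gene lies inside the listed span of Slc22a14 on the same strand, which had 24 counts in tumors and 273 in normal kidneys. Slc22a19 (OAT5, ENSMUSG00000024757, chromosome 19, 7673061 to 7711310), an anion carrier of the late proximal tubule, ranged from 0.986 CPM (kidney 7) through a median of 7.56 CPM to 113 CPM (kidney 6) in normal kidneys. In tumors it ranged from 0 to 0.268 CPM with a median of 0.108 CPM, or 22 counts in all. Its log2 fold change was -7.49 (SE 0.902, adjusted p = 7.21e-07) and no tumor reached the lowest normal kidney. Normal kidney 6 was the highest for both Slc22a7 and Slc22a19, and without it the fitted log2 fold change of Slc22a19 was -6.49. Slc7a13, a marker of the late proximal tubule, had 5 counts in the 10 tumors, 4 of them in tumor 10. Among normal kidneys Slc7a13 was at 411, 731 and 232 CPM in kidneys 1, 9 and 10 but at 0.248 to 16.2 CPM in the other 7, among them kidney 6, where Slc7a13 was at 3.57 CPM and Slc22a7 and Slc22a19 were highest. The part of that segment in these results was not tested.

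Slc22a12 (URAT1, ENSMUSG00000061742, chromosome 19, 6535845 to 6543019), the urate reabsorption carrier, ranged from 223 CPM through a median of 570 CPM to 1226 CPM in normal kidneys and from 46.7 CPM through a median of 312 CPM to 466 CPM in tumors. Tumors 7, 8 and 9, at 46.7, 89.9 and 95.7 CPM, and tumor 5, at 214 CPM, lay below every normal kidney, and the other 6 overlapped them. The log2 fold change was -0.99 (SE 0.379, adjusted p = 0.0357). The call was close to the threshold. It was lost when normal kidney 2, 6 or 9 or tumor 1, 5, 8 or 9 was left out singly, with log2 fold changes of -0.99 to -0.81 and adjusted p-values of 0.0505 to 0.0713. The last value is without normal kidney 9, the highest library. The gene overlaps Nrxn2 on the opposite strand, which had 2904 counts in tumors and 1945 in normal kidneys, and whether the counting used strand is not given in the sources used here.

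Of 7 tested genes in a list of other urate handling genes, 2 were higher in tumors, 2 were lower and 3 were not called, with a median of -0.15. Slc17a4, an anion transporter, rose by 2.39 (adjusted p = 0.000404) and Xdh, the enzyme that makes urate, by 1.00 (adjusted p = 0.0117) on the log2 scale. The urate carrier Slc2a9 fell by 1.48 (adjusted p = 2.65e-07) and the phosphate and urate carrier Slc17a1 fell by 1.38 (adjusted p = 0.000167). Among all tested genes 23.6% were called higher and 23.8% lower, so these counts are near those shares and are not read as a result about urate handling. The same shares are the background for the counts of the lists below.

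Slc22a2 (OCT2, ENSMUSG00000040966, chromosome 17, 12584132 to 12628488), the uptake carrier for organic cations such as metformin, was the gene of the 9 that was called higher in tumors. It ranged from 34.9 CPM through a median of 110 CPM to 279 CPM in normal kidneys and from 122 CPM through a median of 188 CPM to 298 CPM in tumors. All 10 tumors lay above the median of the normal kidneys, and 1 of them, tumor 2, was above all of these. The log2 fold change was 0.72 (SE 0.275, adjusted p = 0.0359). Normal kidney 5, with high injury markers, was the lowest and normal kidney 9 the highest. The call was lost without normal kidney 2, 3, 4 or 7 or without tumor 1, 2, 4 or 6, each left out singly, at log2 fold changes of 0.64 to 0.70 and adjusted p-values of 0.0522 to 0.0659. It was also lost without normal kidneys 5, 7 and 8 together (0.52, adjusted p = 0.0808).

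Slc22a4 (OCTN1, ENSMUSG00000020334) and Slc22a5 (OCTN2, ENSMUSG00000018900) lie on the minus strand of chromosome 11, at 53983123 to 54028090 and 53864542 to 53891660. Slc22a5, the high-affinity carnitine carrier, ranged from 179 CPM through a median of 316 CPM to 371 CPM in normal kidneys and from 83.3 CPM through a median of 144 CPM to 243 CPM in tumors. Tumors 4 and 5 reached into the range of the normal kidneys and the other 8 lay below it. Its log2 fold change was -0.91 (SE 0.176, adjusted p = 0.000209), or 1.89-fold lower. Slc22a4 ranged from 26.2 CPM through a median of 35.1 CPM to 53.2 CPM in normal kidneys and from 8.53 CPM through a median of 20.1 CPM to 24.7 CPM in tumors, without overlap. Its log2 fold change was -0.94 (SE 0.175, adjusted p = 0.000153), or 1.92-fold lower. The log2 ratio of Slc22a4 to Slc22a5 was -3.02 ± 0.60 for tumors, against -2.96 ± 0.45 for normal kidneys (SD, n = 10 each), and the difference of -0.06 was within the spread between libraries (two-sided permutation test, p = 0.797, adjusted p = 0.797).

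Carnitine from Slc22a5 or made in the cell carries fatty acids into mitochondria. Of 11 tested genes of carnitine synthesis and use, 3 were higher in tumors, 5 were lower and 3 were not called, with a median of -0.60. Bbox1, the last enzyme of carnitine synthesis, fell by 4.88 on the log2 scale (adjusted p = 1.25e-07), from 2.80 to 0.0899 CPM on average. With 18 counts in all tumors together, Bbox1 passed the filter through the normal kidneys alone, so its direction was bound to be down. Slc25a29, a mitochondrial carrier of basic amino acids, fell by 1.88 (adjusted p = 1.07e-06), and Cpt1a, which loads fatty acids onto carnitine, fell by 0.80 (adjusted p = 0.000114). Cpt1c rose by 1.01 (adjusted p = 0.00466), Tmlhe, the first enzyme of the synthesis, by 0.62 (adjusted p = 0.0202) and Crat, the acetyl carnitine enzyme, by 0.52 (adjusted p = 0.00420).

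**Figure D3:**
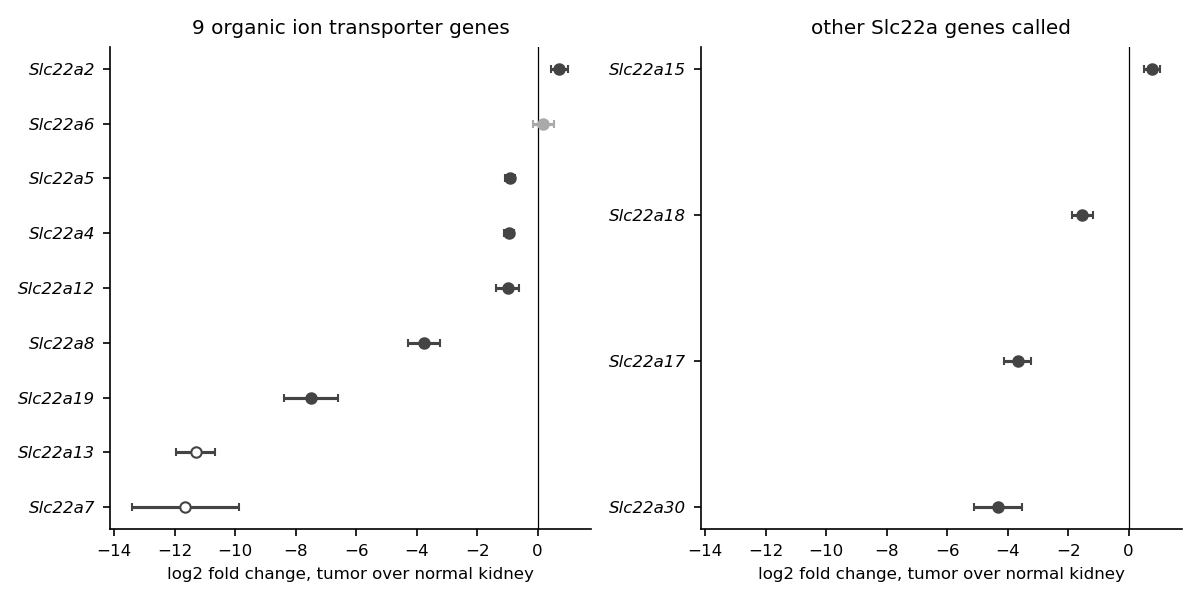
Log2 fold changes of tumors over normal kidneys with standard errors from edgeR's quasi-likelihood fit, for the 9 genes (left) and for the 4 called genes of the rest of the family (right). Dark symbols have an adjusted p under 0.05 and grey symbols do not. Open symbols are Slc22a7 and Slc22a13, with at most 1 count in any tumor, whose fitted values depend on the prior count.

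To compare levels between genes, CPM was divided by the listed gene length in kb. In normal kidneys the mean level per kb ran from Slc22a12 (257 ± 123) through Slc22a8 (122 ± 55.1), Slc22a6 (99.8 ± 34.2), Slc22a5 (94.0 ± 24.3), Slc22a2 (49.6 ± 28.6), Slc22a13 (45.1 ± 29.6), Slc22a4 (14.3 ± 3.14) and Slc22a7 (9.54 ± 17.5) to Slc22a19 (3.78 ± 6.18) (CPM per kb, SD, n = 10). Slc22a12 exceeded Slc22a8 in all 10 normal kidneys. Slc22a5 exceeded Slc22a2, and Slc22a13 exceeded Slc22a4, in 9 of 10, by mean log2 differences of 1.09 ± 0.61 and 1.27 ± 1.25 (SD, n = 10). Slc22a4 exceeded Slc22a7 in 8 of 10, by 2.22 ± 2.27. That last difference, and those of the other 4 neighbouring pairs, did not exceed their SD. In those 4 pairs Slc22a8 exceeded Slc22a6 in 7 of 10 kidneys, Slc22a6 exceeded Slc22a5 in 5, Slc22a2 exceeded Slc22a13 in 5 and Slc22a7 exceeded Slc22a19 in 6. In tumors the order was Slc22a12 (129 ± 75.3), Slc22a6 (114 ± 61.9), Slc22a2 (81.7 ± 21.3), Slc22a5 (49.9 ± 13.7), Slc22a8 (9.11 ± 6.59) and Slc22a4 (7.45 ± 2.22), with Slc22a19, Slc22a13 and Slc22a7 near 0. Slc22a12 exceeded Slc22a6 in 7 tumors and Slc22a6 exceeded Slc22a2 in 8. Their mean log2 differences, 0.13 ± 0.78 and 0.22 ± 0.89 (SD, n = 10), were within the spread. Slc22a2 exceeded Slc22a5, and Slc22a5 exceeded Slc22a8, in all 10. Slc22a8 and Slc22a4 were not apart, with Slc22a8 the higher in 4 of 10 tumors.

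The 9 genes summed to 695 ± 249 CPM per kb in normal kidneys and 391 ± 154 in tumors (SD, n = 10 each), with ranges of 309 to 1088 and 125 to 616. The share of Slc22a8 in this sum was 17.1% ± 5.96 in normal kidneys and 2.07% ± 1.12 in tumors. That of Slc22a2 was 6.85% ± 1.96 and 23.3% ± 8.15, and that of Slc22a6 15.2% ± 5.64 and 27.3% ± 8.78 (SD, n = 10 each). Slc22a12 kept the largest mean share, 36.3% ± 5.93 in normal kidneys and 30.4% ± 11.1 in tumors. These shares are a description and were not tested.

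**Figure D4:**
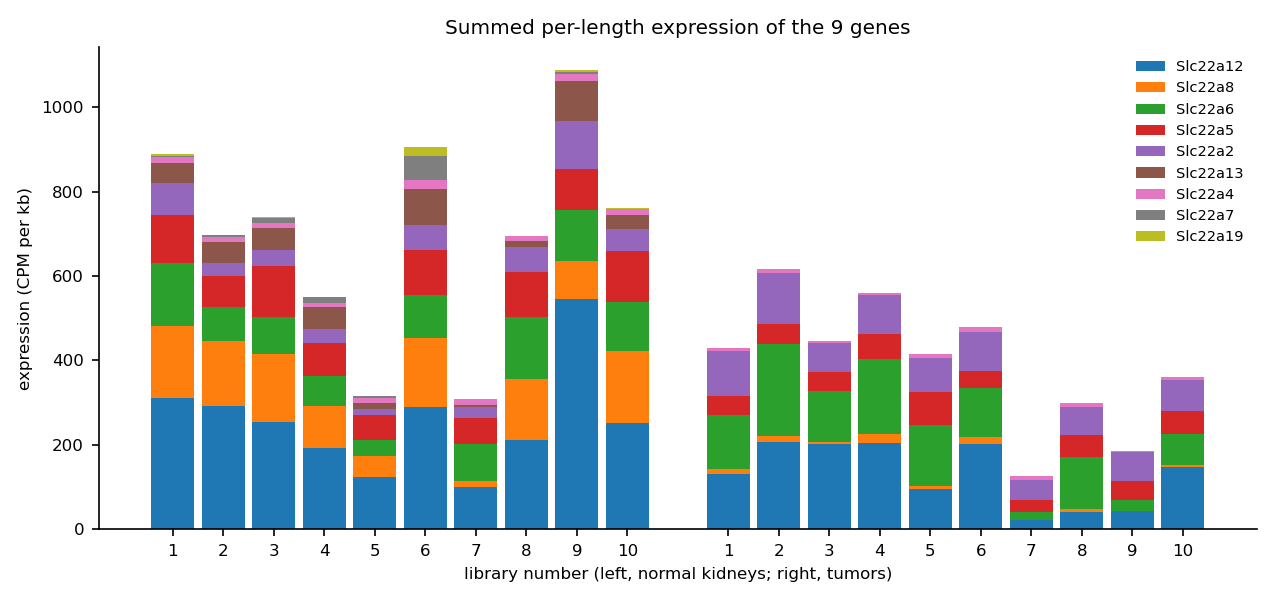
Stacked expression of the 9 genes per kb of listed gene length (CPM per kb) in each of the 10 normal kidneys (left) and 10 tumors (right). The orange part, Slc22a8, is a thin band in every tumor, the brown part, Slc22a13, is seen in normal kidneys alone, and tumor 7 has the smallest sum, 125 CPM per kb.

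Of 16 other genes of the family, which leave out the pseudogene Slc22a13b-ps, 9 passed the filter, 1 was higher in tumors, 3 were lower and 5 were not called, with a median of -0.37. Without any 1 of the tumors the number lower was 5, or 6 without tumor 7, and without normal kidney 7 the number higher was 2. More genes passed the filter without a tumor, 15506 to 15560 against 15354 in the main fit. A family gene that enters through the normal kidneys alone is bound to be lower, so these larger numbers are no evidence about the family. Slc22a15, an orphan carrier, rose by 0.78 (adjusted p = 0.0167). Slc22a17, a receptor for lipocalin 2 and iron carriers, fell by 3.67 (adjusted p = 6.76e-07), from 24.6 to 1.92 CPM on average. Slc22a18, an imprinted gene, fell by 1.53 (adjusted p = 0.00130), and Slc22a30 fell by 4.31 (adjusted p = 0.000149), from 9.39 to 0.467 CPM. For Slc22a18, normal kidneys 5, 7 and 8 (127, 60.3 and 103 CPM) lay within the tumor range of 45.0 to 149 CPM. The other normal kidneys were above that range, from 308 CPM in kidney 4 to 911 CPM in kidney 9. Slc22a14, Slc22a16, Slc22a20, Slc22a22, Slc22a26, Slc22a27 and Slc22a28 did not pass the filter.

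Anions taken up by Slc22a6 and Slc22a8 leave the cell through efflux pumps, and uptake is driven by exchange against dicarboxylates. Of 16 tested efflux and exchange partners, 8 were higher in tumors, 6 were lower and 2 were not called, with a median of 0.34. The largest rises were in Abcc3 (1.94, adjusted p = 3.44e-05), a pump of the blood side, Slco1a1 (1.83, adjusted p = 0.0392) and Abcg2 (1.51, adjusted p = 4.92e-07), the urate and drug pump of the urine side. Slco4c1, an uptake carrier of the blood side, was at 27.7 CPM in normal kidneys and had 3 counts in the 10 tumors together. It passed the filter through the normal kidneys alone, so its direction was bound to be down. The next largest falls were in Slco1a6 (-2.17, adjusted p = 6.80e-05) and Abcb1b (-1.87, adjusted p = 0.000270). Of 8 tested dicarboxylate and monocarboxylate carriers, 2 were higher, 1 was lower and 5 were not called, with a median of -0.14. Slc16a1, a lactate carrier, rose by 2.08 (adjusted p = 7.52e-05) and Slc26a6 by 0.69 (adjusted p = 0.00777), and Slc16a7, another monocarboxylate carrier, fell by 6.77 (adjusted p = 7.84e-09). Without normal kidney 7 the number lower was 2.

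Regulators of proximal tubule genes, transcription factors and a coactivator, were listed as well. Of 13 tested, 2 were higher in tumors, 5 were lower and 6 were not called, with a median of -0.51. Pparg rose by 2.57 (adjusted p = 6.54e-10) and Nr1i2, the pregnane X receptor, by 0.85 (adjusted p = 0.00222). Hnf4g (-1.54, adjusted p = 5.26e-05), Ahr (-1.12, adjusted p = 0.00877) and Nfe2l2 (-0.79, adjusted p = 0.000282) were the largest falls. Hnf4a, a regulator of proximal tubule genes, fell by 0.67 (adjusted p = 0.0371).

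Markers of tubule cells and macrophages were examined beside these results. Of 14 tested proximal tubule markers, 1 (Gatm) was higher in tumors, 5 were lower and 8 were not called, with a median of -0.46. The summed level of the 15 listed markers was 2421 to 21990 CPM in tumors and 5430 to 26579 CPM in normal kidneys, and Slc5a2 (-3.54), Miox (-3.24) and Slc27a2 (-2.03) had the largest called falls on the log2 scale. Leaving out tumor 7, the tumors summed to 9035 CPM or more. For other tubule segments the summed levels did not overlap. Thick ascending limb markers summed to 20.8 to 160 CPM in tumors and 3638 to 9205 CPM in normal kidneys, with Slc12a1, Umod and Cldn16 at 5.46 CPM or less in every tumor. The remaining marker of that list, Cldn10, overlapped between the groups (15.4 to 159 CPM in tumors, 32.2 to 457 CPM in normal kidneys), was not called (-0.71, adjusted p = 0.156) and made up most of the tumor sums. Markers of collecting duct principal cells summed to 0.129 to 31.2 CPM and 164 to 1167 CPM. The 8 injured tubule markers, of which 2 were called higher in tumors and 1 lower, summed to 9106 to 37197 CPM in tumors, above the other 7 normal kidneys and within reach of kidneys 5, 7 and 8. Macrophage markers, of which 3 of 5 were called higher, summed to 225 to 1009 CPM in tumors (median 347 CPM) and 87.5 to 379 CPM in normal kidneys (median 138 CPM). Among normal kidneys, proximal tubule sums were low in kidneys 5, 7 and 8 (9258, 5430 and 8626 CPM), against 18334 to 26579 CPM in the others. These kidneys also had the lowest Slc22a13 (29.4, 9.50 and 30.6 CPM). The lowest Slc22a8 and Slc22a12 were in kidneys 7 and 5, but kidney 8, at 504 and 475 CPM, lay within the range of the others. Slc22a6 and Slc22a2 were not low in kidney 8 either, at 591 and 145 CPM. In tumor 7, the library with the lowest sum, Slc22a8 was at 4.18 CPM, Slc22a12 at 46.7 CPM and Slc22a2 at 122 CPM. Without normal kidneys 5, 7 and 8 the log2 fold changes were -3.98 for Slc22a8, -1.24 for Slc22a12 and -1.03 for Slc22a5. The part of tubule cell content, injury and macrophages in the differences was not tested. These sets of libraries were chosen after seeing the data.

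**Figure D5:**
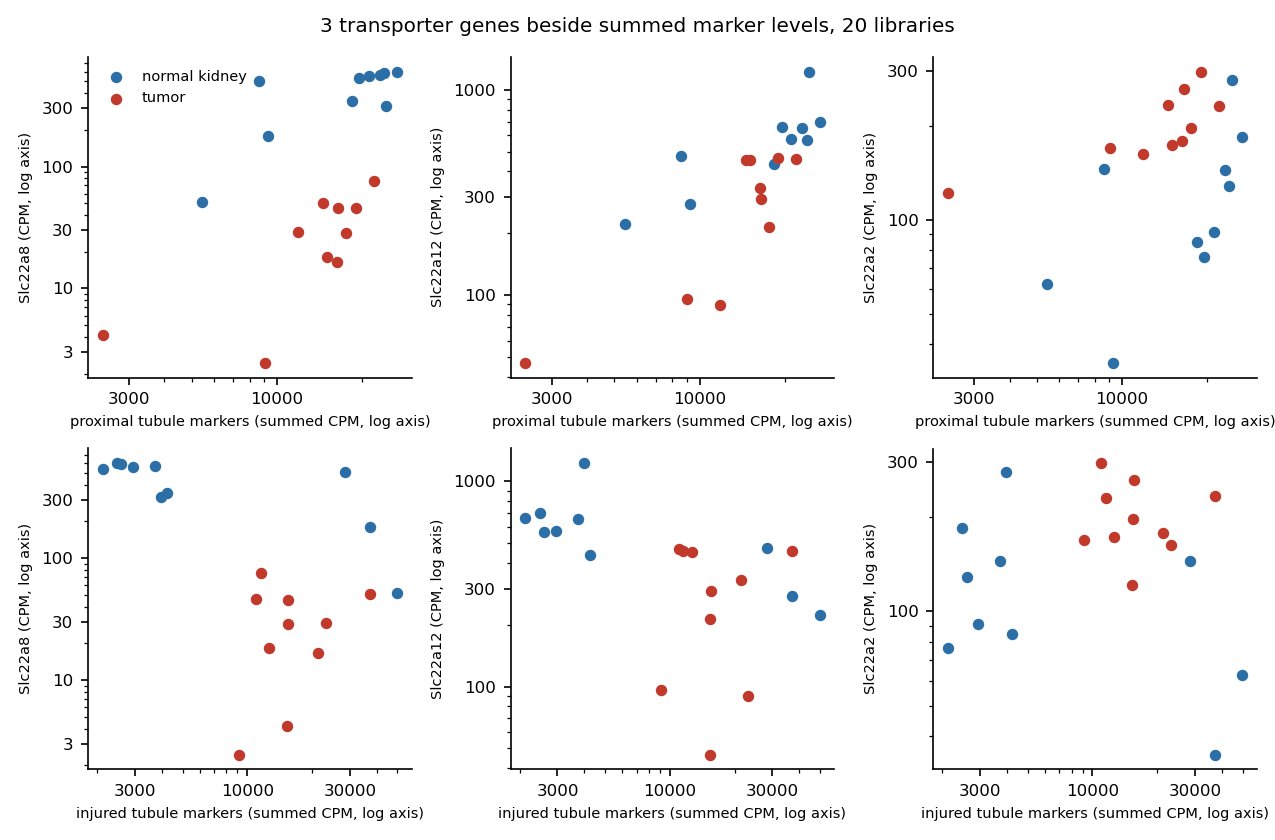
Expression of Slc22a8, Slc22a12 and Slc22a2 (CPM, log axis) against the summed CPM (log axis) of 15 proximal tubule markers (top) and 8 injured tubule markers (bottom), with 1 point per library (blue, 10 normal kidneys; red, 10 tumors). For Slc22a8, 9 of the 10 tumors lie below every normal kidney, and tumor 4, at 75.7 CPM, lies above normal kidney 7 alone. The 3 blue points at 28370 CPM or more of injury markers are normal kidneys 5, 7 and 8.

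Several mouse Slc22a genes are known to differ between male and female kidneys, and the labels do not give sex. Xist, the RNA of the inactive X chromosome, was at 432 to 755 CPM in libraries 2 to 6 of both groups and at 2.4 CPM or less in libraries 1, 7, 8, 9 and 10, which had RNA of the Y-linked gene Ddx3y instead. Among the 10 libraries with Xist, Slc22a6 was at 470 to 882 CPM in the 5 tumors and at 148 to 411 CPM in the 5 normal kidneys, without overlap. Among the 10 without Xist it was at 75.6 to 510 CPM in tumors and at 354 to 593 CPM in normal kidneys. Slc22a2 was at 173 to 298 CPM in tumors and 34.9 to 144 CPM in normal kidneys with Xist, again without overlap, and at 122 to 263 CPM and 62.4 to 279 CPM without it. Every tumor was above every normal kidney in 17.1% of the genes tested among the libraries with Xist.

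Fitted within the libraries with Xist, a choice made after seeing the data, the log2 fold change of Slc22a6 was 1.01 (adjusted p = 0.00912) and that of Slc22a2 was 1.37 (adjusted p = 0.00319), where 23.0% of tested genes were called higher and 25.8% lower. Within those without it, Slc22a6 was at -0.76 (adjusted p = 0.295) and Slc22a2 at 0.17 (adjusted p = 0.779), where 10.1% were called higher and 8.59% lower. Slc22a12 was at -0.36 (adjusted p = 0.288) with Xist and -1.90 (adjusted p = 0.0429) without. Slc22a4, Slc22a5, Slc22a7, Slc22a8, Slc22a13 and Slc22a19 were called lower in both sets. For Slc22a7, Slc22a13 and Slc22a19, with almost no counts in tumors, that direction was bound to be down. The difference between the sets did not pass the test for any gene. In edgeR's interaction term 0 of 16757 genes (0%) were called, and 1914 had an unadjusted p under 0.05. For Slc22a6 the interaction was 1.78 (SE 0.576, unadjusted p = 0.00586, adjusted p = 0.287), for Slc22a12 1.55 (SE 0.666, unadjusted p = 0.0307, adjusted p = 0.399) and for Slc22a2 1.22 (SE 0.481, unadjusted p = 0.0199, adjusted p = 0.359). Tumors 7 and 9 and normal kidneys 7, 8 and 9 are among the libraries without Xist, and their part in these values was not tested.

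In normal kidneys Slc22a7 was at 6.71 to 122 CPM in the 5 with Xist and at 0.511 to 6.91 CPM in the 5 without, so the ranges met at their ends. Slc22a8 did not show such a split, with medians of 532 and 504 CPM. In tumors Slc22a12 was at 214 to 466 CPM with Xist and at 46.7 to 331 CPM without.

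For each of the 9 genes, the protein-coding genes whose expression was most like it were found by Pearson's r of log2 CPM deviations from the group means over 20 libraries, given as a description, since libraries share depth and cell content. For Slc22a8 these were Coq8a (r = 0.91), Dmgdh (0.89) and Aldh6a1 (0.89), mitochondrial genes of coenzyme Q, choline and amino acid metabolism. For Slc22a6 they were Arl6ip1 (0.90), the monocarboxylate carrier Slc5a8 (0.88) and Suox (0.87), and for Slc22a12 Uqcc1, Tmem177 and Cyb5d2 (0.92 each). Slc22a2 was most like Coq4, Fahd2a and Acaa1a (0.89 each). Slc22a5 was most like the glucose 6-phosphate carrier Slc37a4 (0.90), Acad11 and Slc25a42 (0.87 each), and Slc22a4 like Nampt (0.73), Mrpl16 (0.72) and Ace (0.71), the weakest of these likenesses. Slc22a13, Slc22a7 and Slc22a19 had almost no counts in tumors, so their likeness rests on normal kidneys. Slc22a13 was most like Slco4c1 (0.94), Ceacam2 (0.93) and Nccrp1 (0.91), Slc22a7 like Tmprss6 (0.84), Cyp51 (0.81) and Akr1c18 (0.80), and Slc22a19 like Htr3a (0.84), Ghr (0.84) and Ces2b (0.82). Among the 9 genes themselves, the closest pairs in normal kidneys were Slc22a12 with Slc22a13 (r = 0.87, n = 10) and Slc22a2 with Slc22a6 (r = 0.86, n = 10), and in tumors Slc22a6 with Slc22a8.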

How the data were processed

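Total RNA was extracted with Trizol from pulverized tissue, and libraries were made by poly A enrichment at a sequencing company. The authors deposited these counts per gene without normalization, together with gene length and position. The labels name mm10 as the genome build. The aligner, the counting tool and the use of strand are not given in the sources used here, so counts of overlapping genes and near-identical family members carry some uncertainty. There were 0 columns of per-sample values left unused and 0 rows that name no gene. Of the 54532 genes, 22149 had no count in any library.

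Counts were analysed with R 4.3.3. The main test was edgeR 4.0.16, with TMM factors, a filter with a count minimum of 10, the quasi-likelihood test on all 20 libraries without a covariate and Benjamini-Hochberg adjustment over 15354 genes. Log2 CPM used a prior count of 2. Ratios within a library were compared with 100000 permutations (random seed 20240), with p-values adjusted over 3 ratios, of which 1 is not reported here. The floor for libraries at 0 was 3 counts. Likeness was computed for protein-coding genes whose mean reached 1 CPM in either group. Alternatives included DESeq2 1.42.0 and limma 3.58.1. Figures were drawn with matplotlib.

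Named were the 9 genes, the called genes among the other Slc22a genes, the 3 largest rises and falls among the called genes of each other list, the 3 genes most like each of the 9, and the targeted genes. The transcription factor Hnf4a and the markers Slc7a13, Gatm, Slc12a1, Umod, Cldn16, Cldn10, Spp1, Lcn2 and Havcr1 were named after their values were seen, as were Slc22a3, Slc22a22, Slc22a26, Slc22a28 and Slc22a29 in the closing observations. The 9 genes and the lists were chosen with earlier results of these data known. Same-numbered tumors and kidneys were not treated as pairs, since no source used here states that a number marks a mouse and not every same-numbered pair deviated together. Nothing says which libraries share a mouse, and p-values measure the spread between these samples. Every pair of libraries within a group differed beyond counting noise (chi-square of at least 12.8 for each degree of freedom).

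On simulated counts of 15162 genes with 194 changed genes, the quasi-likelihood test recovered 48.0% of those changed by a log2 fold change of 1 and 91.7% of those changed by 2, and 3.57% of its calls were false. The simulation changed few genes, equally often up and down, with independent noise between libraries. Far more genes were called in the real data, so these rates may not carry over to them.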

Additional observations from a re-analysis of the deposited data

Results flagged for a closer look

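Of 22 sets of 10 values (the log2 CPM of each gene in each group and the log2 ratios) that were screened for a single library far from the rest, 4 had one, and chance flags about 1 set in 20. Slc22a4 in tumor 9 was at 3.11 log2 CPM, with the next lowest tumor at 3.82. Slc22a6 in normal kidney 5 was at 7.21 log2 CPM, against 8.15 or more in the other normal kidneys. Slc22a8 in normal kidney 7 was at 5.69 log2 CPM, against 7.48 or more. The log2 ratio of Slc22a8 to Slc22a6 in the same kidney was -2.77, against -0.61 or more in the others. Normal kidneys 5 and 7 are also among the 3 with the highest injured tubule markers, with Havcr1 at 164 and 1347 CPM.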

How the results depend on the processing

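The alternatives were other size factors, no filter on low counts, DESeq2, limma-voom with and without quality weights, same-numbered libraries as a block and each library left out in turn. Added after seeing the data were 4 sets of libraries, without tumor 7 and normal kidney 9, without normal kidneys 5, 7 and 8, with Xist and without it. Slc22a4, Slc22a5, Slc22a7, Slc22a8, Slc22a13 and Slc22a19 stayed lower with an adjusted p under 0.05 in all of these. For Slc22a7, Slc22a13 and Slc22a19, with almost no counts in tumors, that direction was bound to be down, so it is no sign of stability. The causes of the following changes were not tested, except that sets with fewer libraries hold fewer samples and that 15834 genes passed the filter without normal kidneys 5, 7 and 8 and 15497 with Xist. The count of genes higher and lower fell to 1582 and 1339 without Xist. Upper quartile factors and library totals moved the median of all genes to -0.14, and 39.2% and 38.5% of called genes were then higher, against 49.8%.

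Slc22a2 had a log2 fold change of 0.60 with upper quartile factors, 0.52 without normal kidneys 5, 7 and 8 and 0.17 without Xist, none of them called, and 0.61 to 0.93 with each library left out. The number of the 9 genes called higher was 0 in those 3 sets, 2 with Xist and 0 to 1 with each library left out. Slc22a6 was at -0.0074 with limma-voom, 1.01 with Xist (called) and -0.76 without. Slc22a12 was at -0.70 without tumor 7 and normal kidney 9 and at -0.36 with Xist, neither called, and at -1.10 to -0.81 with each library left out. The difference in the Slc22a4 to Slc22a5 ratio was 0.0068 without normal kidneys 5, 7 and 8 and -0.17 to 0.045 with each library left out.

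Of the other Slc22a genes, the number higher was 0 with library totals, without tumor 7 and normal kidney 9 and without Xist, 2 with quality weights and without normal kidneys 5, 7 and 8, and 1 to 2 with each library left out. The number lower was 8 without the filter, 9 without normal kidneys 5, 7 and 8, 6 with Xist and 3 to 6 with each library left out. More genes were tested in these settings than in the main fit. Family genes that enter through normal kidneys alone are bound to be lower, so the larger numbers are no evidence of further falls. Lower dicarboxylate and monocarboxylate carriers numbered 2 with quality weights, without normal kidneys 5, 7 and 8 and with the block, and 1 to 2 with each library left out. Lower regulators numbered 8 with DESeq2 and 9 with quality weights. Without Xist, 4 efflux partners, 0 carboxylate carriers, 1 urate gene, 1 carnitine gene and 1 regulator were higher, and with Xist 1 urate gene was higher and 3 carnitine genes were lower.

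Same-numbered libraries deviated together in 9 of 10 pairs (r up to 0.377), with -0.143 for number 9, 8 tumors correlated best with their own number, and the presence of Xist matched in all 10 numbers. These values are a hint that the numbers mark mice, with number 9 the exception, but no source used here states it and the limit of 0.1 was not met by every pair, so the fit without the block was kept. With the replicate block 3979 genes were higher and 3886 lower, 7 of the 9 genes were called lower and 1 higher, Slc22a2 was at 0.89 and Slc22a8 at -3.98.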

Other observations

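Among the family members that did not pass the filter, Slc22a22 had 2336 counts in the 10 normal kidneys and 2 in the 10 tumors, a summed level 1207-fold lower with a 95% exact counting interval of 334 to 9973. Slc22a26 had 981 counts and 1 count, a level 1014-fold lower (182 to 40083). In normal kidneys Slc22a22 ranged from 0.342 to 35.4 CPM and was lowest in kidneys 5, 7 and 8, at 0.621 CPM or less. Slc22a26 was highest in normal kidney 1 (18.1 CPM), without Xist, and next in kidney 6 (11.6 CPM), with it. Slc22a28 was highest in normal kidneys 1, 9 and 10, without Xist, at 19.0, 15.1 and 9.89 CPM. Slc22a30 was at 26.0, 39.0 and 14.3 CPM in kidneys 1, 9 and 10, against 0.0992 to 3.74 CPM in the other 7. Slc22a29 was at 14.0 to 27.4 CPM in normal kidneys 2, 3, 4 and 6, which had Xist, and at 1.83 CPM in kidney 5, which also had it. Slc22a3, which was at 0 to 1.14 CPM in 9 tumors, was at 13.5 CPM in tumor 7, the library with the most fibroblast RNA.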
